A study of Homo sapiens with 7 samples.

Results

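The 8 genes described here belong to the junction between epidermal keratinocytes and the underlying dermis, out of 16686 gene symbols in the expression table, by the signal of their rows in control and knockdown cells. The 8 genes were taken by symbol: ITGA6, ITGB4, COL17A1, DST and PLEC for the hemidesmosome, LAMA3 and LAMB3 for laminin-332, and COL7A1 for the anchoring fibril. All 8 were found, and all passed the filter on low values. Polyadenylated RNA was sequenced from monolayers of N/TERT2G, a human keratinocyte line made immortal with telomerase. In 4 libraries (siYT A to D) a lipid reagent had carried pooled siRNAs against both YAP1 and TAZ (gene WWTR1), and in 3 (siCON A to C) a non-targeting siRNA, each at 8 pmol per cm2, with RNA taken after 48 h. YAP1 and TAZ are transcriptional co-activators that act through TEAD factors on DNA. A single cell line was used, and the study's reporting notes say of its cell experiments in general that control and treated wells were seeded together, in neighbouring wells, so the p-values rest on the scatter of these libraries alone, and that scatter may be technical.

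Hemidesmosomes rivet basal keratinocytes to the basement membrane. The integrin dimer of ITGA6 and ITGB4 and the transmembrane collagen of COL17A1 cross the cell membrane, while the plakins encoded by DST (BPAG1e in epidermis) and PLEC (plectin) tie them to keratin filaments inside the cell. Outside, the integrin binds laminin-332, a laminin trimer that holds the LAMA3 and LAMB3 chains, and collagen VII from COL7A1 forms the anchoring fibrils that hold the basement membrane to the dermis. Inherited loss of any of these proteins gives skin fragility or blistering.

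After the knockdown the genes did not move as a unit. COL7A1 rose 2.84-fold, and ITGA6 and COL17A1 rose 1.55-fold and 1.51-fold, while ITGB4 fell 1.79-fold and DST fell 1.59-fold. PLEC, LAMA3 and LAMB3 were 1.16-fold to 1.34-fold above the control, under the fold of 1.5 that the study used with an adjusted p under 0.05 to call a gene changed. Thus 3 of 8 were called higher and 2 of 8 lower, against 14.1% and 13.2% of the 13072 genes tested (27.4% in either direction). The median log2 fold change was 0.36 over the 8 genes and 0.003 over all genes tested. All 8 had an adjusted p under 0.05 at any fold, as did 69.6% of all genes (under the other settings LAMA3 lost it with the trend of fold change on transcript length removed, adjusted p = 0.467, and DST with quantile normalization, adjusted p = 0.0631), and all 8 separated the 2 groups with no overlap, as did 68.7% of all genes.

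**Figure D1:**
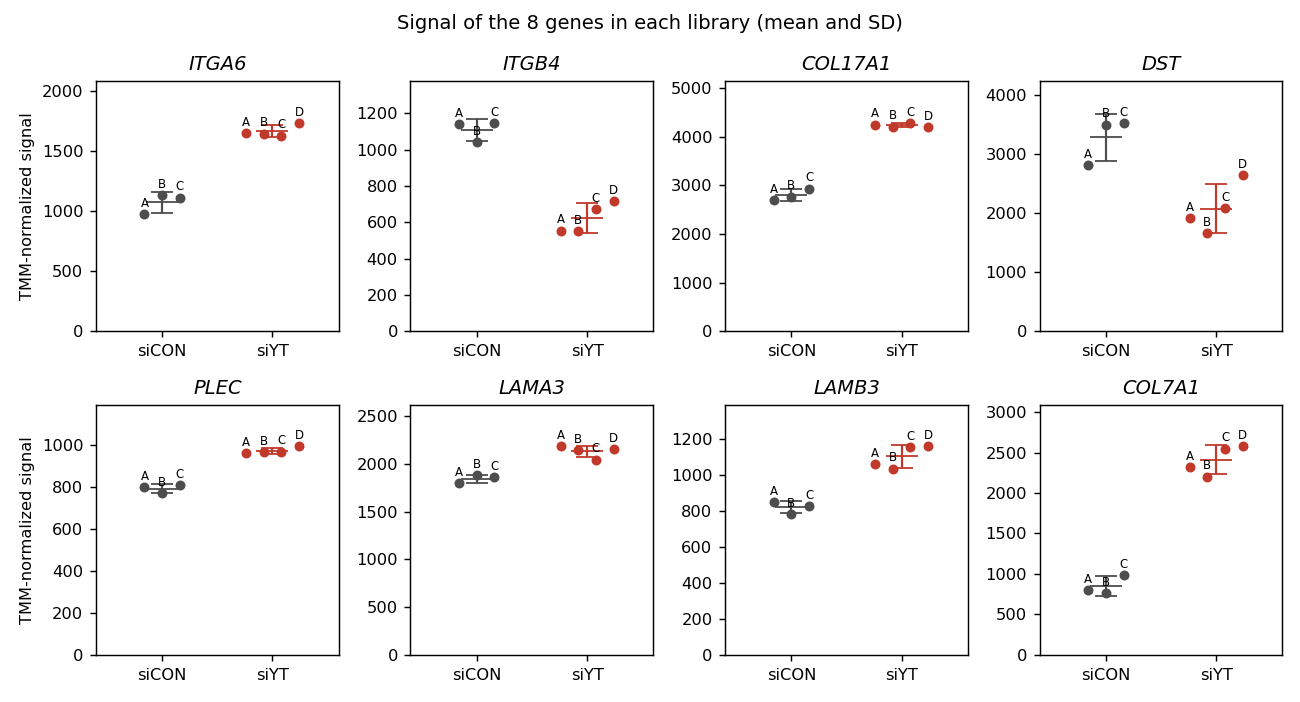
Each panel shows one gene's TMM-normalized signal (y axis, from 0) in the 3 siCON libraries (grey) and the 4 siYT libraries (red), with letters for the replicates and the mean and SD as a bar. COL7A1 separates most widely (765 to 988 against 2203 to 2576), ITGB4 and DST are lower in every siYT library, and the siYT values of DST spread from 1667 to 2638.

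Values are the authors' TMM-normalized signal (gene totals scaled for library size and composition by a trimmed mean), from approximately 20700000 to 23900000 reads a library. Both targets were lower in every siYT library: YAP1 was at 231 to 258 in siCON and at 64.5 to 76.2 in siYT, and WWTR1 at 34.4 to 37.3 and at 4.90 to 6.30. The cells carried keratinocyte markers at high level, with KRT5 at 20678 to 21256 in siCON and 21037 to 23481 in siYT. Of the fibroblast markers listed, COL1A1 (86.9 to 108 and 95.1 to 106) and DCN (136 to 144 and 80.7 to 91.4) had signal, whereas COL1A2, COL3A1 and PDGFRB were at most 2.39 in any library. The summed signal of the 5 fibroblast markers found was 227 to 256 in siCON and 186 to 193 in siYT. COL7A1 is also made by fibroblasts, and the part of other cells in the results was not tested. PMEL of melanocytes and VWF of endothelium were at most 1.66 and 0.941 in any library, and CD68, found in macrophages and at lower level elsewhere, was at 45.5 to 51.4 in siCON and 47.2 to 58.0 in siYT. In such bulk samples fewer cells that express a gene and less RNA per cell cannot be told apart.

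Promoter bases are given for 4 members: COL7A1, which changed most, COL17A1, the other collagen, and DST and LAMA3, which held one of the motifs searched. RefSeq windows were found for 6 of the 8 genes, 11 windows in all, since DST and LAMB3 have 3 starts each and ITGA6 has 2. Each is the run of 250 bases that ends just before the start, 5′ to 3′ on the gene's strand, on GRCh38.p14. The core bound by TEAD factors, GGAATG, and the AP-1 core TGANTCA were searched on both strands (the cores do not overlap in these windows), and matches are in capitals.
COL7A1 (chr3:48595330-48595579, minus strand): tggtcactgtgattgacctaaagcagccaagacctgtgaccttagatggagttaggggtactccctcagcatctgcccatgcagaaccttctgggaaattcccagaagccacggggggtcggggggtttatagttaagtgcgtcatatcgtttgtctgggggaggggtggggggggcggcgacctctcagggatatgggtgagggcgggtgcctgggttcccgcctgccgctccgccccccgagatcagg
COL17A1 (chr10:104085881-104086130, minus strand): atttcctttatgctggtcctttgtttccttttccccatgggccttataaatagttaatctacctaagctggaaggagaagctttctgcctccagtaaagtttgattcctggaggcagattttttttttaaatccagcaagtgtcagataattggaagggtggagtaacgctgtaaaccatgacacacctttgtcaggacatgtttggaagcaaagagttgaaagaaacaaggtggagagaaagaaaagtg
DST, most upstream start (chr6:56954831-56955080, minus strand): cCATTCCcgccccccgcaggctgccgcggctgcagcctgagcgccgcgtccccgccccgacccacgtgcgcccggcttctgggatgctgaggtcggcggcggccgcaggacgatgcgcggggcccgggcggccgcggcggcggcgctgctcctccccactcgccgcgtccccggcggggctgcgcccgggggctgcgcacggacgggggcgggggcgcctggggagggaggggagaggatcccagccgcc
LAMA3 (chr18:23872770-23873019, plus strand): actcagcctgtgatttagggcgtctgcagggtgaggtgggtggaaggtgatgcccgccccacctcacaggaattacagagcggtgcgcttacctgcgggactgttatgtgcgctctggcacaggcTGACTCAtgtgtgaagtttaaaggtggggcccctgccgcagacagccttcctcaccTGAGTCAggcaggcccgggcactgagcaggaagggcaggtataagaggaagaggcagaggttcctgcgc
The TEAD core was in 1 of the 11 windows, that of the most upstream DST start, on the opposite strand and 249 bases before the start, and 11.9% of all 35116 windows of this length held it. The windows of the middle and most downstream DST starts held neither core. Which DST start was used in these cells, or gives the epidermal form, was not determined here. The 11 windows are not independent, since the first 2 of LAMB3 share bases and the 2 of ITGA6 adjoin. The AP-1 core was in 2 of the 11, against 6.57% of all windows. LAMA3 held it at 125 and 69 bases before the start, and a downstream start of LAMB3 held it at 67 bases. A match describes letters only and says nothing of binding, and the windows of COL7A1 and COL17A1 held neither core.

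The integrin pair moved in opposite directions. ITGA6, the alpha6 subunit (chromosome 2, 173292082 to 173371181, plus strand of hg19, as for all gene positions here), measured 975, 1138 and 1113 for siCON A to C, and 1652, 1646, 1630.2 and 1738 for siYT A to D. Every siYT library lay above every siCON library, and the mean rose from 1075 ± 87.4 (SD, n = 3) to 1667 ± 48.3 (n = 4), a log2 fold change of 0.63 ± 0.06 SE (adjusted p = 3.53e-07). The lowest ITGA6 value was that of siCON A, and without that library the change was 0.57, just under the fold threshold of 0.58 on the log2 scale. ITGB4, the beta4 subunit with the long cytoplasmic tail that recruits the plakins (chromosome 17, 73717408 to 73753899, plus strand), had control values of 1143, 1040.0 and 1149, and knockdown values of 554, 551, 673 and 717. The groups did not overlap, and siYT A and B were lower than C and D. The mean fell from 1111 ± 61.2 to 624 ± 84.1, a log2 fold change of −0.84 ± 0.09 SE (adjusted p = 3.31e-07). GALK1 overlaps ITGB4 on the opposite strand and averaged 11.8 over the libraries. The use of strand in counting is unknown, as the sources used here do not give it.

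The beta4 subunit pairs only with alpha6, whereas alpha6 also pairs with the beta1 subunit of ITGB1. The ratio of ITGA6 to ITGB4 signal within a library, which a scaling of whole libraries cannot alter, was 0.853 to 1.09 in siCON and 2.42 to 2.99 in siYT. On the log2 scale it went from −0.05 ± 0.18 (SD, n = 3) to 1.43 ± 0.17 (n = 4), a shift of 1.48 that stayed at 1.38 to 1.56 with any 1 library left out. ITGB1 itself had a log2 fold change of −0.02 (1152 to 1351 in siCON, 1201 to 1267 in siYT), with siYT values inside the siCON range. ITGA3, the partner of ITGB1 in the other laminin-332 receptor of keratinocytes, was at 467 ± 6.0 and 632 ± 19.0 (log2 fold change 0.44, adjusted p = 1.03e-06), under the fold threshold.

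**Figure D2:**
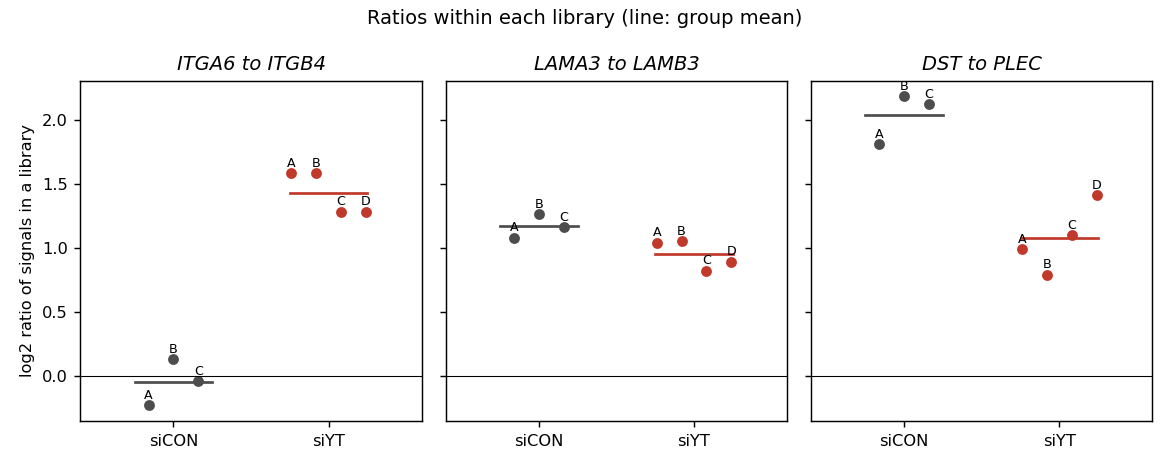
Log2 ratio of 2 signals within each library (y axis) for ITGA6 to ITGB4, LAMA3 to LAMB3 and DST to PLEC, siCON in grey and siYT in red, with letters for the replicates and a line at each group mean. The ITGA6 to ITGB4 ratio is near 0 in siCON and 1.28 to 1.58 in siYT, the DST to PLEC ratio is lower in siYT, and the LAMA3 to LAMB3 ratio shifts least.

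COL17A1, the transmembrane collagen known as BP180 (chromosome 10, 105791044 to 105845760, minus strand), had the highest level per kilobase of canonical transcript of the 8 genes in both groups. The 3 control libraries measured 2699, 2770.4 and 2935, and the 4 knockdown libraries 4254, 4213, 4291 and 4206. The siYT libraries lay close together and clear of the control. The mean went from 2801 ± 121 to 4241 ± 39.5, a rise of 0.60 ± 0.07 (SE) on the log2 scale at an adjusted p of 1.30e-06. The fold was close to the threshold and missed it without siCON A (0.57). ADAM9, ADAM10 and ADAM17 encode sheddases of this collagen, and none of the 3 was called (log2 fold changes of −0.06, 0.22 and 0.53), though ADAM17 was called with equal totals (0.64).

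DST (chromosome 6, 56322785 to 56819426, minus strand) and PLEC (chromosome 8, 144989321 to 145050902, minus strand) encode the linkers to keratin, and DST was the member with the largest error of its change. Its signal was 2815, 3498 and 3529 under siCON, and 1916, 1667, 2080.3 and 2638 under siYT, so that siYT D lay near siCON A though the groups did not overlap. The mean fell from 3281 ± 404 to 2075 ± 412, which is −0.67 ± 0.12 (SE) in log2 with an adjusted p of 0.000164, and without siYT B the fall was 0.57 on the log2 scale, just under the threshold. PLEC gave 800.3, 770.0 and 809 without the knockdown, then 963, 967, 969 and 994 with it, and the groups were tight and did not overlap. Its log2 fold change of 0.30 ± 0.05 SE (adjusted p = 9.30e-05) was under the fold threshold. Within libraries DST signal, not divided by transcript length, was 3.52 to 4.54 times that of PLEC in siCON and 1.72 to 2.65 times in siYT.

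A DST signal is a sum over very different transcripts. The gene holds 20 coding transcripts in GENCODE, and transcripts from its 3 RefSeq starts are 24709 bases (most upstream), up to 17756 bases, and 8971 to 16742 bases (most downstream). The epidermal form and the neural and muscle forms arise from separate starts, and these gene totals do not separate them. The same holds for LAMA3, whose canonical transcript has 10651 bases and whose RefSeq window above gives a transcript of 5618 bases.

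The laminin-332 chains of LAMA3 and LAMB3 differed little from the control, and neither was called. LAMA3, the alpha3 chain (chromosome 18, 21269407 to 21535030, plus strand), gave 1797, 1879.8 and 1859.6 in the control libraries, with 2184, 2145, 2045 and 2155 after the knockdown. LAMB3, the beta3 chain (chromosome 1, 209788215 to 209825811, minus strand), gave 850.2, 786 and 830.1, with 1064, 1037, 1157 and 1161 after the knockdown. Both were higher in every siYT library, and neither passed the fold threshold (log2 fold changes of 0.21 ± 0.06 SE, adjusted p = 0.00608, and 0.43 ± 0.06 SE, adjusted p = 1.21e-05). In signal not divided by transcript length, LAMA3 was 2.11 to 2.39 times LAMB3 in siCON and 1.77 to 2.07 times in siYT. Per kilobase of canonical transcript LAMA3 was below LAMB3 (173 and 205 in siCON, 200 and 275 in siYT), an order that rests on the transcript assumed.

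COL7A1, collagen VII (chromosome 3, 48601506 to 48632700, minus strand), had the largest change of the 8 genes and the smallest adjusted p. The control libraries measured 804, 765 and 988, and the knockdown libraries 2319, 2203, 2549 and 2576. Even the lowest siYT library was far above the highest control. The mean went from 852 ± 119 to 2412 ± 181, a rise of 1.51 ± 0.09 (SE) in log2 (95% interval 1.32 to 1.69, adjusted p = 4.61e-10) that ranked it 215 by rise among the 13072 genes tested. Genes near to COL7A1 over the 7 libraries were sought with each gene's log2 values centred on its siCON mean. The nearest were POU2F3 (root mean square distance 0.046), EPHB3 (0.059) and H19 (0.066), with log2 fold changes of 1.51, 1.52 and 1.53. POU2F3 signal was low, at 1.48 to 1.81 in siCON and 4.86 to 6.07 in siYT. At such values the constant added before the log understates the fold change, so the nearness of POU2F3 depends on that constant. Its distance with other constants was not tested. EPHB3 was at 13.6 to 16.8 and 41.1 to 47.7, and H19 at 164 to 226 and 511 to 568. Beside LAMB3 of the same basement membrane zone, COL7A1 signal was 0.946 to 1.19 times in siCON and 2.12 to 2.22 times in siYT, a ratio chosen after its values were seen.

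**Figure D3:**
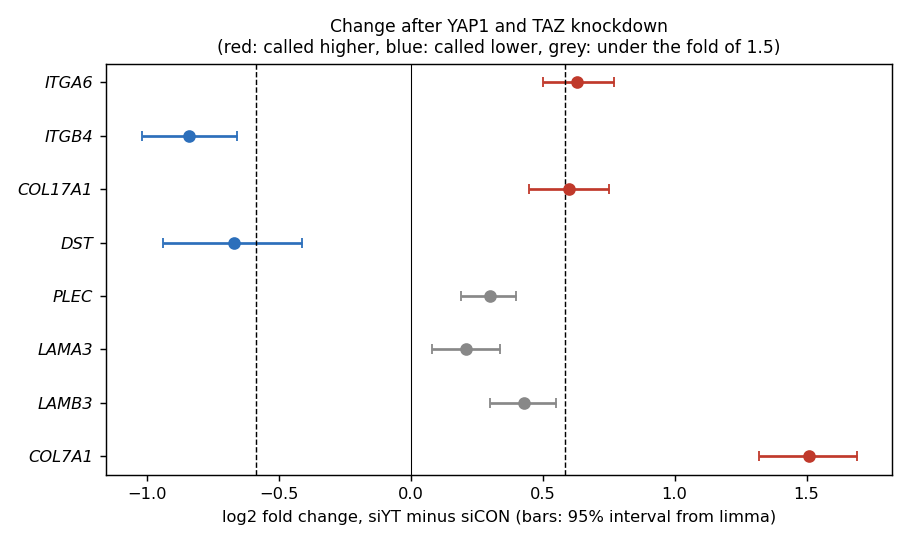
Log2 fold change, siYT minus siCON (x axis), with the 95% interval from limma as bars, for the 8 genes, and dashed lines at the fold of 1.5. COL7A1 lies past the line with its whole interval, as does ITGB4 on the other side, the intervals of ITGA6, COL17A1 and DST cross a line, and PLEC, LAMA3 and LAMB3 lie between the lines.

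Per kilobase of canonical transcript, the order of the members changed with the knockdown. The ratios within libraries given above are of signals not divided by length, so they show shifts between the groups and not which gene has more transcripts. In siCON, COL17A1 led with a signal of 499 per kilobase, followed by LAMB3 (205), ITGB4 (188), ITGA6 (185), LAMA3 (173), DST (133), COL7A1 (92.3) and PLEC (53.6). The library ranges of ITGB4 (176.4 to 194.8), ITGA6 (167.7 to 195.6) and LAMA3 (168.7 to 176.5) overlapped there, those of ITGB4 and LAMA3 only barely. The ranges alone do not settle the order of these 3, and differences within libraries were not tested. In siYT the order was COL17A1 (756), ITGA6 (287), LAMB3 (275), COL7A1 (261), LAMA3 (200), ITGB4 (106), DST (84.0) and PLEC (65.8), with overlap between ITGA6 and LAMB3, between LAMB3 and COL7A1 and between ITGB4 and DST. The integrin subunits, whose control ranges overlapped, thus stood at 287 and 106 in siYT. The places of DST and LAMA3, and with them those of other members, rest on the transcript assumed, so the order holds for these lengths only. With the shorter transcripts above (8971 and 5618 bases) DST was at 366 and 231 and LAMA3 at 328 and 380 per kilobase in siCON and siYT. For LAMB3, the transcript of 3931 bases from its middle start gave 209 and 281 per kilobase, below COL17A1. The transcript of 908 bases from its most downstream start would give 905 and 1217. It has 6 exons, beside 23 in the canonical transcript, and is shorter than every coding transcript in GENCODE's basic set. The whole signal of the gene is therefore not read at that length.

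The calls of 6 members depended on the scaling or on the length trend. Equal library totals moved the median of all genes from 0.003 to 0.111 on the log2 scale, with 64.6% of 3620 calls upward against 51.6% of 3579, and DST then missed the threshold (−0.56). Quantile normalization raised each of the 8 values, ended the calls of ITGB4 (−0.55) and DST (−0.27, adjusted p = 0.0631) and added calls of PLEC (0.62) and LAMB3 (0.73). With the trend of fold change on transcript length removed, ITGA6 (0.52) and COL17A1 (0.49) missed the threshold. No member changed sign under any of the 18 settings tried.

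**Figure D4:**
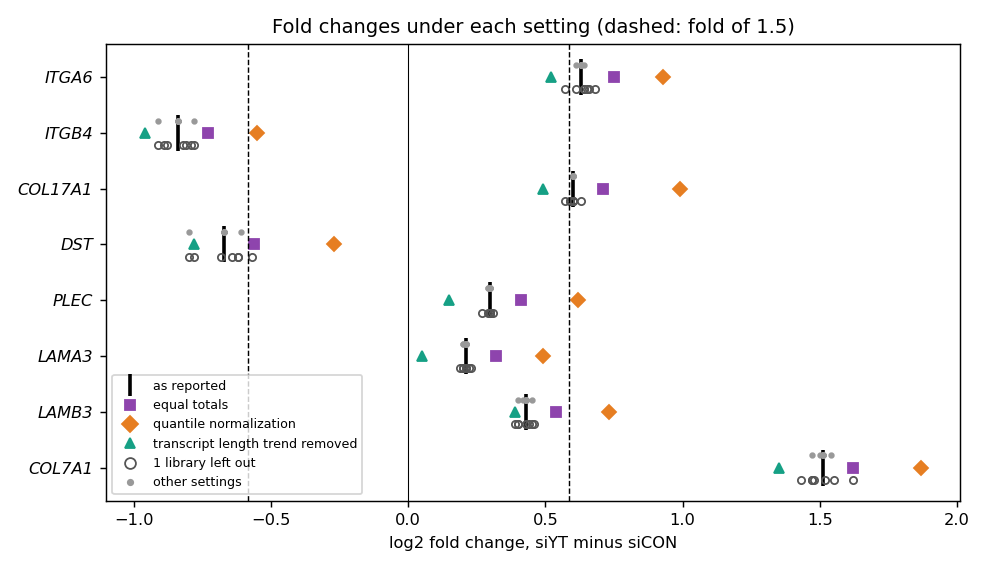
Log2 fold change of each gene (x axis) as reported (black bar) and under the 18 other settings, with symbols for the 3 that move values most, open circles for fits with 1 library left out, and dashed lines at the fold of 1.5. COL7A1 stays past the threshold throughout (1.35 to 1.87), DST ranges from −0.80 to −0.27, and no gene crosses 0.

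The other genes listed as partners of these proteins or as keratin anchors were not called. Of 7 hemidesmosome partner and keratin anchor genes, 0 rose and 0 fell under limma (median −0.02, range −0.31 to 0.44), while at an unadjusted p under 0.05 and any fold 1 was higher and 2 were lower. Over all genes tested 27.4% were called, and 36% were higher and 36.1% lower at an unadjusted p under 0.05. With quantile normalization ITGA3 (0.65) was called higher. KRT5 and KRT14, the basal keratins that the plakins bind, were at 20952 ± 290.2 and 22323 ± 1240.1 (log2 fold change 0.09, adjusted p = 0.495) and at 9327 ± 332.5 and 8187 ± 642 (−0.19, adjusted p = 0.0815). KRT14 had a positive sign with quantile normalization and with the length trend removed. CD151, a tetraspanin of the hemidesmosome, was at 323 ± 17.8 and 261 ± 11.0 (−0.31, adjusted p = 0.000104), and with the length trend removed it was at −0.06 (adjusted p = 0.35). Among 5 other plakin genes, EPPK1, encoding epiplakin, fell 2.24-fold (103 ± 5.12 to 45.9 ± 2.71, adjusted p = 1.25e-10) and 0 rose under limma, with 4 higher at an unadjusted p under 0.05. The desmosomal plakin DSP was just under the threshold (2808 ± 156 and 4181 ± 209, log2 fold change 0.57) and was called under 6 of the 18 settings. These were quantile normalization (0.99), equal totals (0.69), without siCON B (0.60), without siCON C (0.60), without siYT A (0.60) and without siYT C (0.59). MACF1, a spectraplakin related to DST, was at 401 ± 27.7 and 476 ± 47.3 (0.24).

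Other basement membrane genes were higher in most cases. Of 17 listed, 16 were in the table and 14 passed the filter, of which 10 rose, 0 fell under limma and 4 were not called. Over all genes tested 14.1% were called higher and 13.2% lower. At an unadjusted p under 0.05 and any fold 13 were higher and 1, LAMB1 (log2 fold change −0.20), was lower, beside 36% and 36.1% of all genes. The median log2 fold change was 0.92, beside 0.003 for all genes tested. LAMC1, the gamma1 laminin chain (150 ± 11.1 to 497 ± 18.4), rose 3.31-fold (adjusted p = 1.04e-12). COL4A2 and COL4A6, chains of the collagen IV network, rose 2.79-fold (147 ± 8.17 to 410 ± 13.7) and 2.33-fold (186 ± 14.0 to 434 ± 17.7). LAMA5 of laminin-511 (221 ± 12.6 to 466 ± 32.8) and HSPG2, encoding perlecan (460 ± 25.5 to 929 ± 60.4), rose 2.11-fold and 2.02-fold. The fold for LAMB3, the larger of those of the laminin-332 members, was 1.34, and the difference from this list was not tested. The count of 10 was the same under each of the 18 settings.

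Among 8 proteases that shed or process junction proteins, 3 rose and 0 fell under limma (median 0.51), beside 14.1% and 13.2% of all genes, with 7 higher and 0 lower at an unadjusted p under 0.05, beside 36% and 36.1%. The count of 3 was 5 with equal totals, 4 with quantile normalization and 4 with the length trend removed. MMP9 and MMP2, gelatinases, rose 3.67-fold (46.8 ± 8.92 to 172 ± 19.1) and 3.50-fold (15.8 ± 1.48 to 56.4 ± 2.47), and MMP14, a membrane-bound protease that cleaves laminin-332, rose 1.68-fold (310 ± 13.8 to 520.5 ± 13.8). BMP1, which trims procollagen VII, was under the threshold (159 ± 9.91 and 210.5 ± 5.27, log2 fold change 0.41). Of 10 collagen folding and modification enzymes, 3 rose, 1 fell and 6 were not called (median −0.03). The prolyl hydroxylase gene P4HA2 (119 ± 1.63 to 212 ± 8.42) and LEPRE1 (16.3 ± 1.63 to 27.8 ± 2.93) rose 1.78-fold and 1.68-fold, and P4HA1 rose as well, while PPIB, a prolyl isomerase of the endoplasmic reticulum, fell 1.91-fold (376 ± 13.7 to 198 ± 26.6) and missed the threshold with the length trend removed (−0.53).

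**Figure D5:**
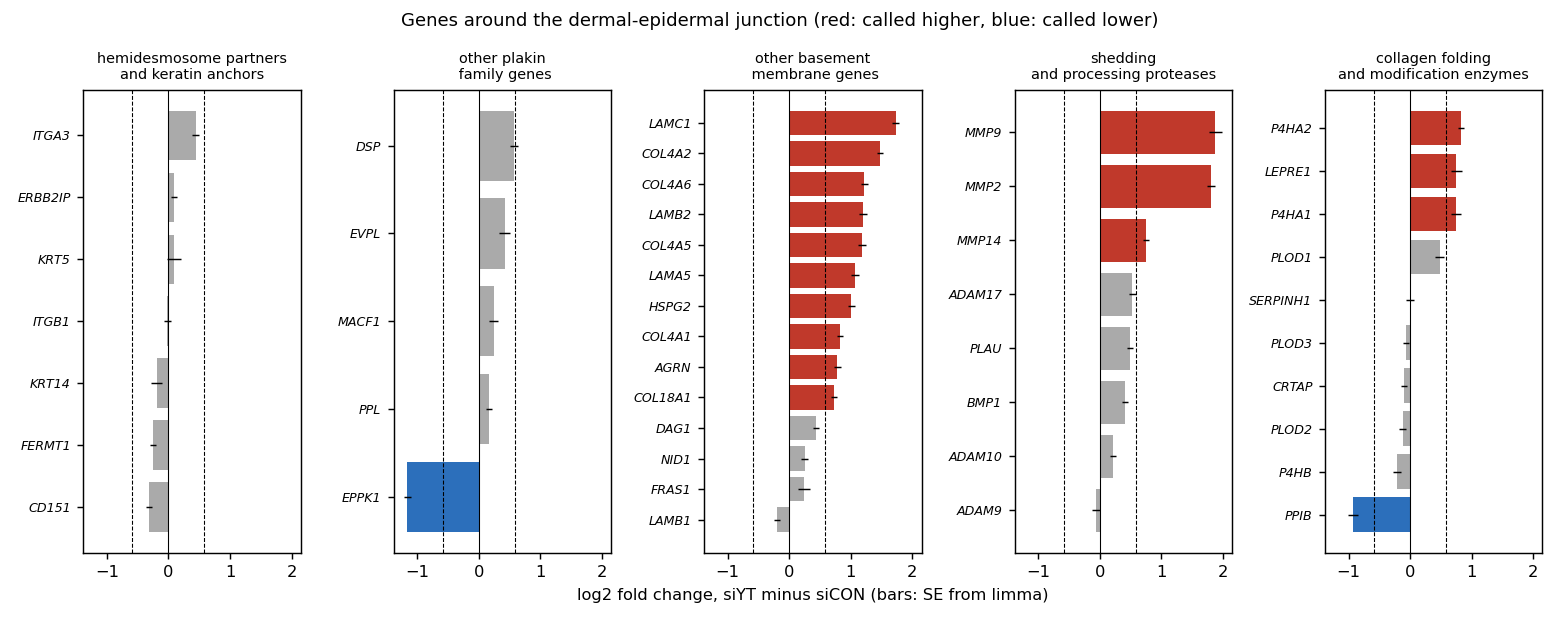
Log2 fold change, siYT minus siCON (x axis), with the SE from limma as bars, for the tested genes of 5 lists around the junction, with red for called higher, blue for called lower, grey for not called and dashed lines at the fold of 1.5. In the list of other basement membrane genes 10 of 14 bars are red, against 0 of 7 among hemidesmosome partners and 14.1% of all genes tested.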

How the data were processed

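Reads were trimmed (cutadapt 1.18 per the submitters' processing notes, Trimmomatic per the study's methods), aligned to hg19 with STAR 2.6.1 and counted per gene in Partek 8.0.19.0819, genes under 8 reads were removed, and the authors scaled gene totals by TMM. The deposited values are this normalized signal. Total over lowest value gave the approximate reads. A second deposited table, the authors' own comparison (p-values, q-values, ratio, fold change and group means), was not used. Of 18478 entries, 1792 repeats of a symbol with equal values were dropped.

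Values were analysed as log2(value + 0.5), so fold changes of low genes are understated. Genes with a mean of at least 1 (13072) were tested with limma 3.58.1 in R 4.3.3 (empirical Bayes with a mean-variance trend, no covariate) and Benjamini-Hochberg adjustment over all of them, after a check of the code on simulated data. Called genes had an adjusted p under 0.05 and a fold of at least 1.5. Lengths and exons came from GENCODE v44 on GRCh37, the build of the files, and promoters from RefSeq. Table stop positions were reduced by 1.

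The members and lists were chosen with earlier results of these data known. Named genes were the 8 members, YAP1 and WWTR1, in each list the called genes that changed most, up to 3 (completed by abundance where fewer than 2 were called), the 3 genes nearest to the most changed member, and, chosen after their values were seen, CD151, ITGA3, ITGB1, LAMA5, LAMB1, HSPG2, BMP1, P4HA1, the ADAM genes and the markers. Of 79 list and marker entries, 9 without a match were not analysed here, and 1 further gene is not reported here. Alternatives were other pseudocounts (0.1 and 2), filters (none and a mean of 5), scalings, robust limma, removal of the length trend, a replicate block, averaging siYT A with B, and each library left out.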

Additional observations from a re-analysis of the deposited data

How the results depend on the processing

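With no filter the count over all genes was 4001 and with a minimum mean of 5 it was 2824, both within 1.5 times the 3579 reported. The members called higher were 5 with quantile normalization and 1 with the length trend removed, and those called lower were 1 with equal totals and 0 with quantile normalization. With equal totals DST was at −0.56. With quantile normalization ITGB4 was at −0.55, DST at −0.27, PLEC at 0.62 and LAMB3 at 0.73. With the length trend removed ITGA6 was at 0.52 and COL17A1 at 0.49. The cause of these shifts was not tested.

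With 1 library left out, the members called higher were 1 to 3 and those called lower 1 to 2. The log2 fold changes were then 0.57 to 0.68 for ITGA6 and 0.57 to 0.63 for COL17A1, both lowest without siCON A, and −0.80 to −0.57 for DST, nearest to 0 without siYT B. ITGB4 (−0.91 to −0.78), PLEC (0.27 to 0.31), LAMA3 (0.19 to 0.23), LAMB3 (0.39 to 0.46) and COL7A1 (1.43 to 1.62) kept their side of the threshold. The sign turned for KRT14 with quantile normalization (0.28) and with the length trend removed (0.04). Of 576 recomputed values for other named genes and lists, 556 kept their call, 18 changed it or moved and 2 reversed.

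The replicate letters were not taken as pairs, since deviations from the group means correlated at 0.156, 0.025 and 0.183 for A, B and C, and siCON A correlated best with siYT B (0.176). With the letter as a replicate block, 3528 genes were called and the members' calls stayed at 3 and 2. As siYT D has no siCON library of its letter, it did not bear on the fold changes of that fit. Those of ITGA6 (0.61), DST (−0.80) and COL7A1 (1.47) were the same as without siYT D. Within siYT, A and B lay closer to each other than to C and D for ITGB4 (554 and 551, against 673 and 717) and PPIB (216 and 223, against 187 and 166), though not for every gene. The labels do not say whether the 4 libraries are independent. With A and B averaged, 3650 genes were called and the members' calls stayed at 3 and 2. Members had signals above 550 in every library, so depth limits them less than the spread between libraries does.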
